A study of Mus musculus with 6 samples.

Results

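The genes described here encode the plasma and cell-surface proteins of complement, blood clotting and fibrinolysis. They were taken from a list of 41 genes of these cascades, and 40 of them were found among the 23073 genes with a value in the RNA-Seq of mouse embryonic diaphragm. Klkb1, plasma prekallikrein, was not analysed here. The list was divided by where each gene is usually made, from general knowledge and not from these data. Of the 40, 18 are made by hepatocytes, 11 by hepatocytes and by other cells as well, and 11 mainly outside hepatocytes, by endothelial cells, fibroblasts, macrophages or platelets and their precursors.

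In all of these cascades inactive proteins circulate in plasma until a trigger turns the first of them into a protease, which then cuts the next. Clotting ends with thrombin cutting fibrinogen into fibrin. Fibrinolysis dissolves the fibrin through plasmin, and complement ends with a pore that is inserted into membranes. Hepatocytes make most of the circulating proteins, while the activators, receptors and membrane regulators come from the cells that use them, so that one cascade draws on transcripts from several tissues. Skeletal muscle is not a usual source of the circulating clotting factors.

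The libraries came from E14.75 diaphragms in 3 groups of 2. The erbB3 WT group (replicates 5 and 6) was whole wild-type muscle. The erbB3 KO group (replicates 1 and 2, here the mutants) was whole muscle of embryos without functional erbB3, a receptor that Schwann cell precursors need, so that this muscle lacks Schwann cells. The Wnt1-Ribotag group (replicates 1 and 2) was erbB3 wild-type, from litters of a cross of Ribotag with Wnt1-Cre mice. Wnt1-Cre is active in the neural crest lineage and not in Schwann cells alone. Per the paper, whole litters were homogenized, and later genotyping found Cre, on which the tag depends, in only part of the embryos. The RNA of this group was pulled down with HA-tagged ribosomes from the pooled diaphragms of a litter, from far less RNA than the whole-muscle libraries. Genotype and RNA preparation therefore differed together between Wnt1-Ribotag and mutant libraries and cannot be told apart. Values are RPKM, reads scaled to the length of the transcript and to the number of mapped reads.

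Schwann cell transcripts followed the labels. Sox10, a transcription factor of the Schwann cell lineage, was at 2.89 and 2.16 RPKM in the wild-type libraries, 0.00854 and 0.0178 in the mutants, and 15.6 and 32.2 in Wnt1-Ribotag. The Erbb3 transcript itself did not separate the genotypes, with 16.5 and 15.8 RPKM in the wild types and 21.5 and 11.9 in the mutants. Liver transcripts were present in every library and stood unevenly among them. The 19 liver markers found summed to 543.3 and 169.2 RPKM in wild types 5 and 6, to 23.2 and 15.3 in mutants 1 and 2, and to 319 and 212 in Wnt1-Ribotag 1 and 2. The diaphragm lies against the liver. Whether liver tissue or its RNA entered the libraries was not tested, and these sums are given because they move with most of the results below. Depth, as implied by the value of a single read, lay between 100178863 and 230216660 mapped reads. Between 19492 and 20349 genes were above the floor in a whole-muscle library, and 17205 and 17945 in the Wnt1-Ribotag libraries. A gene is at the floor when no read was counted, and the listed value is then that of 1 read.

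Most of these genes were low. Of the 40, 19 had a mean of at least 1 RPKM over the 6 libraries and 2 a mean of at least 10, while 7 had a mean under 0.1. In all 6 libraries 35 were above the floor. The plot of RPKM in each library shows the different shapes of the 3 source classes.

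**Figure D1:**
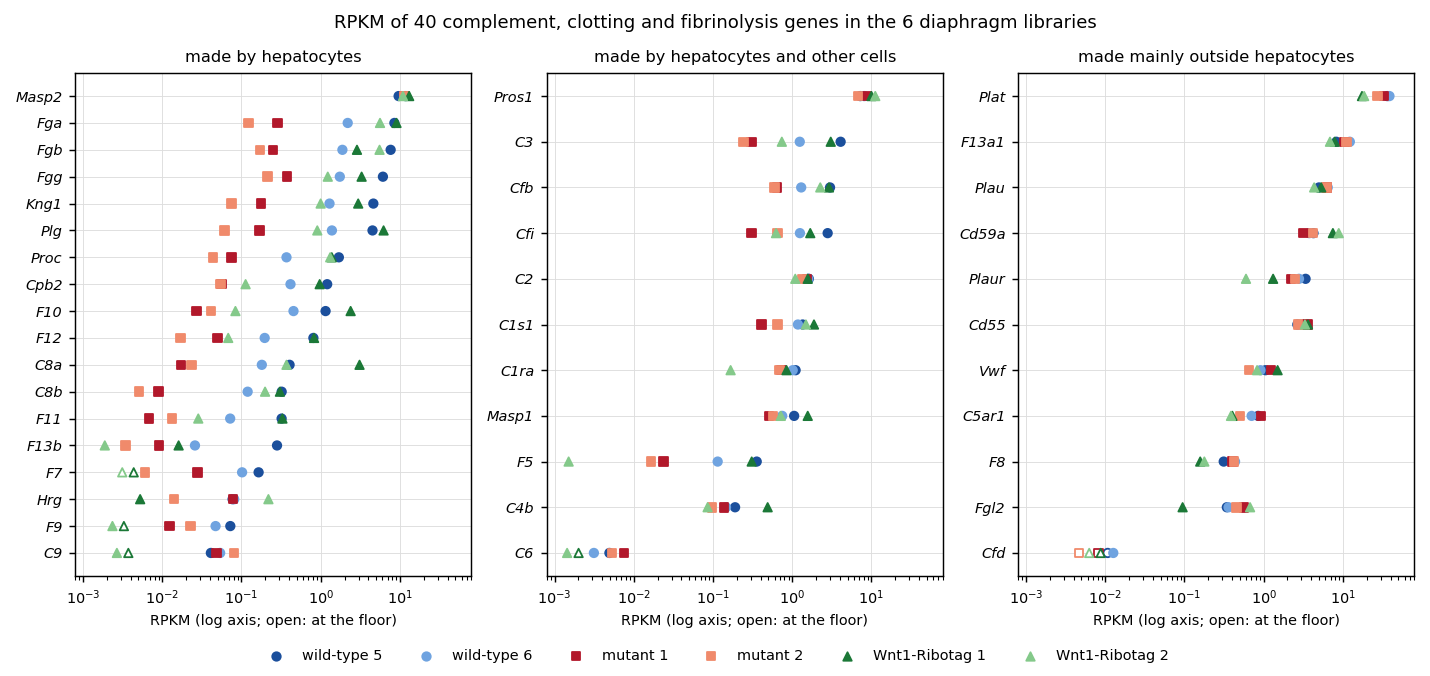
RPKM on a log axis of the 40 genes in each of the 6 libraries, in 3 panels by usual source; circles are wild-type, squares mutant and triangles Wnt1-Ribotag, and open symbols are at the floor. Most genes made by hepatocytes spread over more than 10-fold between mutant and wild-type libraries, with Masp2 at 9.63 to 13.1 RPKM as an exception, whereas genes made mainly outside hepatocytes, led by Plat, lie close together.

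The fibrinogen chains were the highest of the clotting genes made by hepatocytes. Fga, Fgb and Fgg, which encode the alpha, beta and gamma chains, lie side by side on chromosome 3. Their promoters are shown because the 3 genes moved together in every whole-muscle library. The sequences are the 250 bases before the transcript start in RefSeq, build GRCm38.p6, written 5′ to 3′ on the strand of the gene. Capitals mark matches on either strand to GTTAAT, a half-site of the hepatocyte factor HNF1, and to TTGCNNAA, the core of a C/EBP site.
Fga, chr3:83025903-83026152, plus strand: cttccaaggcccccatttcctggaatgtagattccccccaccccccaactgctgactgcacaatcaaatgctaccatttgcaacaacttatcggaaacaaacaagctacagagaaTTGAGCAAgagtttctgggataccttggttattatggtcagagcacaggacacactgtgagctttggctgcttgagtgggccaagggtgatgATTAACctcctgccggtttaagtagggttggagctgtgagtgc
Fgb, chr3:83049864-83050113, minus strand: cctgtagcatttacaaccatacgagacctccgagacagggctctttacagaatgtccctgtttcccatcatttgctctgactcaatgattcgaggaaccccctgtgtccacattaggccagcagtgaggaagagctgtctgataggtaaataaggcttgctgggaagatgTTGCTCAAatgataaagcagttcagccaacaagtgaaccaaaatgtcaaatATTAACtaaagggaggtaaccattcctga
Fgg, chr3:83007474-83007723, plus strand: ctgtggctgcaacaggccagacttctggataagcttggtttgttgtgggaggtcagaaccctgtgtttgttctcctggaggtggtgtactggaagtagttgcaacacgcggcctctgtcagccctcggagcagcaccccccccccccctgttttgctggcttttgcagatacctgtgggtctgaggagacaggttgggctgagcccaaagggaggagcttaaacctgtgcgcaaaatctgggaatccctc
The C/EBP match starts 135 bases before the start of Fga and 80 before that of Fgb, and the HNF1 half-site 43 and 29 bases before. Fgg holds neither. Searched with the 50 bases after the start included, 30 of the 41 listed genes had a promoter in the table. GTTAAT was found in 8.24% of the 27025 genes with a promoter and in 5 of 16 genes made by hepatocytes (F13b, Fga, Fgb, C8a and C8b). TTGCNNAA was found in 12.2% of all genes, in 8 of the same 16, in 3 of 6 genes of mixed source and in 1 of 8 of outside source. In each of the last 2 classes GTTAAT was found in 1 gene. Both were found in 1.33% of all genes and, among the listed genes, in Fga, Fgb and C1ra. The letters were chosen after the promoters had been looked at, and a match is not evidence of binding. The entries missing were Proc, Kng1, Plg, C2, C4b, Cfb, Cfi, Masp1, Vwf, Plat and Plau.

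The question asked first was how these genes differ between erbB3 mutant and wild-type muscle. Fga was at 8.52 and 2.19 RPKM in wild types 5 and 6, and at 0.287 and 0.122 in mutants 1 and 2. Fgb was at 7.64 and 1.88 RPKM in the wild types and at 0.251 and 0.171 in the mutants. For Fgg the wild types had 6.10 and 1.74 RPKM and the mutants 0.374 and 0.214. Each chain was thus lower in both mutants than in both wild types, and each was also several-fold higher in wild type 5 than in wild type 6. Relative to the mean of the wild types, the mutants averaged 3.82% for Fga, 4.43% for Fgb and 7.50% for Fgg. On the log2(RPKM + 0.5) scale used for all tests, which understates the change of low genes, Fga differed by -2.82 (SE 0.47), and limma gave an adjusted p of 0.0912. The adjusted p was 0.111 for both Fgb (-2.63, SE 0.48) and Fgg (-2.28, SE 0.43), again from limma. None of the 3 chains passed 0.05.

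Other clot proteins split by source. F13b, the carrier subunit of the fibrin-crosslinking factor XIII, is made by hepatocytes and was at 0.281 and 0.0259 RPKM in the wild types and at 0.00911 and 0.00344 in the mutants. F13a1, its catalytic subunit, is made by macrophages and megakaryocytes. It was at 8.28 and 12.2 RPKM in the wild types and at 10.5 and 11.2 in the mutants, so that the groups overlapped (0.10, SE 0.19, adjusted p = 0.829 by limma). Vwf, the platelet adhesion protein of endothelial cells, overlapped as well, at 1.05 and 0.912 against 1.23 and 0.649 RPKM. Fgl2, a membrane prothrombinase of macrophages and endothelial cells, was higher in both mutants, at 0.567 and 0.453 RPKM against 0.343 and 0.360, but was too low for the fit. Fgl2 and C6 were the 2 genes of the list with both mutants above both wild types, and C6, a terminal component, rested on 2 to 5 reads in each of those libraries.

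Among the clotting proteases and their cofactors, 7 of 8 were lower in both mutants than in both wild types, as were 35.9% of all genes above the floor. Kng1, kininogen of the contact pathway, was at 4.62 and 1.29 RPKM in the wild types and at 0.175 and 0.0749 in the mutants (-2.28, SE 0.42, adjusted p = 0.111 by limma). F10, the protease that forms thrombin, was at 1.15 and 0.453 RPKM in the wild types and at 0.0271 and 0.0412 in the mutants. The paper regards F10 as not reliably detected in its RNA-Seq, and by qPCR at an earlier age reports it as higher in mutant diaphragm. F12, which starts the contact pathway, went from 0.809 and 0.196 RPKM to 0.0498 and 0.0169. In each of these genes even the lower wild type was above the higher mutant. F11, the contact-pathway protease downstream of F12, F7, which binds tissue factor, F9, the partner of factor VIII, and F5, the cofactor of F10, were also lower in both mutants, their mutant means at 5.12%, 12.8%, 29.2% and 8.56% of the wild-type means. For F9 these values rest on 18 and 27 reads in the wild types and 4 and 13 in the mutants, and for F7 on 31 and 44 and on 7 and 3. Reads were worked out only for genes at the floor in some library, so not for F5 and F11. The exception was F8, the cofactor made by endothelial cells, at 0.313 and 0.436 RPKM in the wild types and 0.405 and 0.425 in the mutants. Kng1 has a near-identical copy, Kng2, between which reads may be shared, and Kng2 stood at 1.14 and 0.342 RPKM in the wild types and 0.0718 and 0.0272 in the mutants.

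The protein C system, which shuts clotting down by cutting activated F5 and F8, held one gene of each kind. Proc, protein C, was at 1.70 and 0.370 RPKM in the wild types and at 0.0746 and 0.0435 in the mutants, a mutant mean of 5.72% of the wild-type mean (-1.31, SE 0.38, adjusted p = 0.297 by limma). Pros1, its cofactor protein S, is made by endothelial and other cells besides hepatocytes. It was at 7.24 and 8.13 RPKM in the wild types and at 8.75 and 6.75 in the mutants, and the groups overlapped (0.00, SE 0.17, adjusted p = 0.996).

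Fibrinolysis divided in the same way between the plasma proenzyme and its activators. Plg, plasminogen, was at 4.51 and 1.39 RPKM in the wild types and at 0.170 and 0.0607 in the mutants (-2.33, SE 0.40, adjusted p = 0.0924 by limma). Cpb2, a carboxypeptidase that protects fibrin from plasmin, was at 1.21 and 0.416 RPKM against 0.0560 and 0.0546. Hrg, the histidine-rich glycoprotein, was an exception among the genes made by hepatocytes, at 0.0772 and 0.0809 RPKM in the wild types and 0.0783 and 0.0140 in the mutants. Plat, the tissue activator of plasminogen and the highest gene of the list, was at 36.5 and 38.8 RPKM in the wild types and at 32.9 and 27.4 in the mutants. Both mutants were lower, but the difference of -0.32 (SE 0.14) did not pass in limma (adjusted p = 0.418). Plau, urokinase, was at 4.99 and 6.44 RPKM against 6.31 and 6.20. Its receptor Plaur was at 3.38 and 2.80 RPKM in the wild types and 2.22 and 2.51 in the mutants (-0.32, SE 0.16, adjusted p = 0.445).

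Among the complement genes in the fit the largest difference was at C3, the protein on which all activation routes converge. C3 was at 4.09 and 1.25 RPKM in the wild types and at 0.305 and 0.244 in the mutants (-1.87, SE 0.39, adjusted p = 0.137 by limma). Cfb, the protease of the alternative C3 convertase, was at 3.01 and 1.30 RPKM against 0.642 and 0.595 (-1.17, SE 0.29, adjusted p = 0.213). Cfi, which inactivates C3b and C4b, was at 2.81 and 1.25 RPKM against 0.307 and 0.654 (-1.32, SE 0.31, adjusted p = 0.184). All 3 were lower in both mutants, without passing the test. Cfd, the protease that activates Cfb, was at the floor in every library except wild type 6, where 3 reads were counted, and 3 reads would have been worth at most 0.0322 RPKM in the others.

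The classical and lectin pathways moved less. C1s1, a protease of the C1 complex, was at 1.36 and 1.18 RPKM in the wild types and at 0.412 and 0.655 in the mutants (-0.78, SE 0.19, adjusted p = 0.185 by limma). C1ra, the protease that activates it, was at 1.11 and 1.02 RPKM against 0.732 and 0.690 (-0.37, SE 0.16, adjusted p = 0.418). Masp1, a lectin-pathway protease, had 1.06 and 0.749 RPKM in the wild types and 0.512 and 0.575 in the mutants. C2, the protease of the classical C3 convertase, was at 1.62 and 1.59 RPKM against 1.55 and 1.34, and C4b, the other component of that enzyme, was lower at 0.190 and 0.146 against 0.138 and 0.0980 RPKM. Each of these 5 genes was lower in both mutants, by margins that for C2 and C4b were close to the spread within a group. C2 shares 42.8% of its exon bases, and Cfb 79.5%, with a read-through transcript on the same strand. Reads of C1s1 and C4b may also have been shared with their copies C1s2 and C4a.

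Masp2, the lectin-pathway protease that cuts C4 and C2, was the other exception, since it is made by hepatocytes and was at 9.63 and 11.7 RPKM in the wild types, 11.5 and 11.2 in the mutants, and 13.1 and 10.9 in Wnt1-Ribotag. Its values overlapped in each comparison. In GRCm38, a newer build than the mm9 the labels name, Masp2 spans chr4:148602554-148615499, and 54.9% of its exon bases overlap Tardbp on the opposite strand. Tardbp was at 141.5 to 183.2 RPKM. Whether strand was used in counting is not given in the sources used here, and without it reads of the 2 genes cannot be told apart.

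The terminal pathway, which builds the membrane pore, was low throughout. C8a, a pore subunit, was at 0.405 and 0.181 RPKM in the wild types and at 0.0173 and 0.0235 in the mutants, and C8b, its neighbour on chromosome 4, at 0.322 and 0.120 against 0.00897 and 0.00509. C9, which lines the pore, did not share this, at 0.0411 and 0.0538 RPKM in the wild types and 0.0487 and 0.0798 in the mutants. The receptor and membrane regulators overlapped between the groups. C5ar1, the C5a receptor of myeloid cells, was at 0.854 and 0.705 RPKM against 0.930 and 0.505. Cd55 and Cd59a, which protect a cell's own membrane from convertases and from the pore, were at 2.66 and 2.94 and at 4.26 and 3.77 RPKM in the wild types, and at 3.57 and 2.72 and at 3.18 and 4.22 in the mutants.

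Counted by source, 15 of the 18 genes made by hepatocytes were lower in both mutants than in both wild types, the exceptions being Hrg, C9 and Masp2. The same held for 9 of 11 genes of mixed source, and for Plat and Plaur among the 10 of outside source above the floor in these 4 libraries. Beside the 35.9% of all genes that were lower in this sense, 12.6% were higher, so the first 2 counts lay above that share and the last below it. Across the 15 genes the mutants averaged 3.19% to 29.2% of the wild types. Of the 23 genes in the limma fit none passed (0.171% of 14052 genes did), and 10 had an unadjusted p under 0.05, as did 1691 genes in all. The count passing moved with either wild type left out, which leaves 1 sample in that group. At least 2-fold lower in all 4 pairs of a mutant and a wild-type library were C3, Fga, Fgb, Fgg, Kng1 and Plg, 6 of 23 against 0.399% of all genes tested, and 0 were higher, against 0.0498%. The same 6 met the rule when all 40 genes were counted, against 0.247% of 23073 genes. All 6 are in the fit only through their wild-type values, since their mutant means lie under the filter of 0.5 RPKM, so medians are given without a filter. The median difference was then -0.72 for the 18 genes made by hepatocytes, -0.42 for the 11 of mixed source and -0.015 for the 11 of outside source, beside -0.029 over all genes. Over the 14052 genes tested it was -0.10, and 0.004 after scaling. The 8 tested genes of outside source had a median of 0.09 after quantile normalization and 0.10 without mutant 2 against -0.08 otherwise, so their direction is not fixed. Of 19 liver markers 12 were at least 2-fold lower in all pairs, and 3 passed (Afp, Alb and Fabp1). Without the filter 0 of the 19 passed, and 0 of all 23073 genes did. Of 10 erythroid markers, a cell type of the fetal liver and of blood, 1 was at least 2-fold lower in all pairs (Slc4a1, at 15.4 and 7.04 RPKM against 2.69 and 0.696). Lower without overlap were 6 of 9 platelet and megakaryocyte markers, 4 of 9 macrophage, 2 of 10 endothelial and 1 of 10 fibroblast markers. Higher were 0, 2, 2 and 2 of these. Of 10 skeletal muscle markers 5 were higher and 0 lower. In bulk muscle fewer cells of a type and less RNA per cell cannot be told apart.

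**Figure D2:**
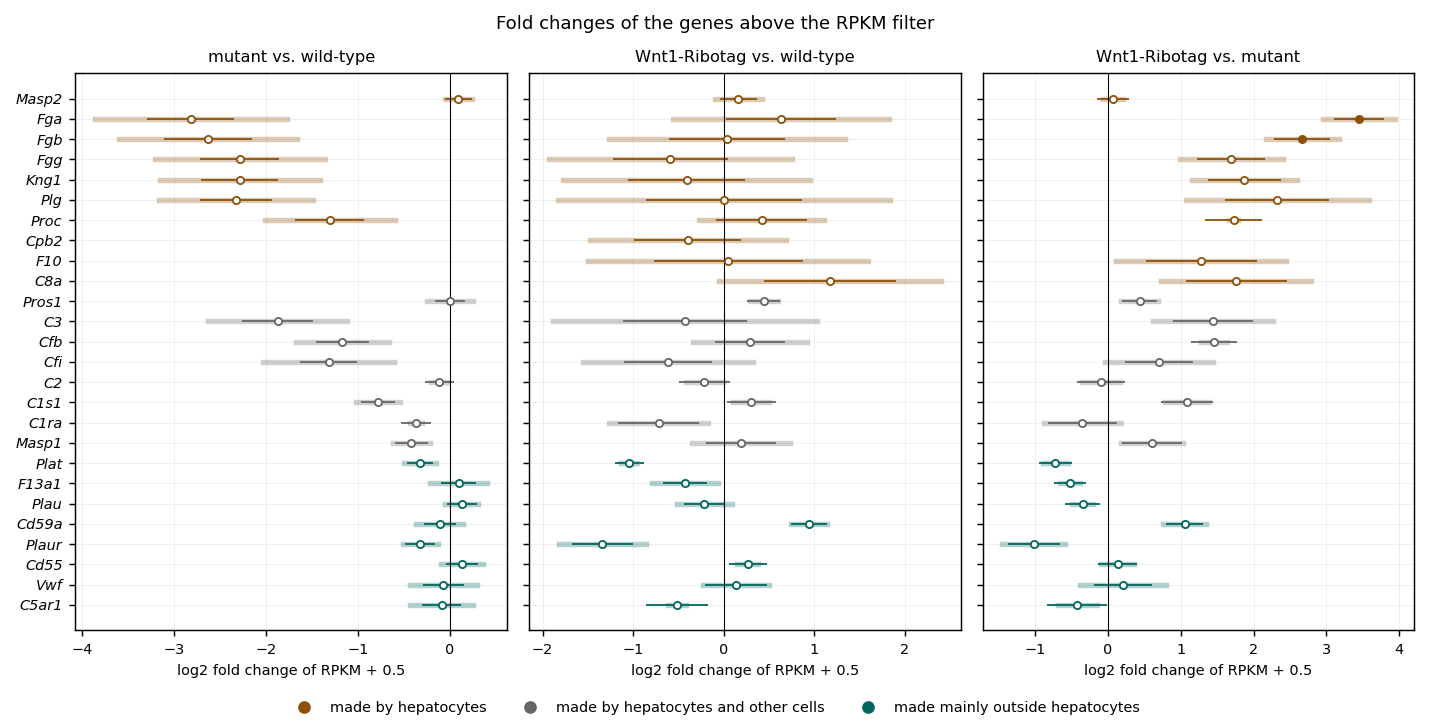
Log2 difference of RPKM + 0.5 for the genes in each fit, in the 3 comparisons; dark bars are standard errors from limma, pale bars the range over the 4 pairs of libraries, and filled points have an adjusted p under 0.05. Only Fga and Fgb are filled, both in Wnt1-Ribotag vs. mutant, at 3.45 and 2.67.

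Both wild-type libraries also differed from each other in these genes. Of the 15 genes made by hepatocytes that were never at the floor, 13 were at least 2-fold higher in wild type 5 than in wild type 6, with a median ratio of 3.50, while 1.04% of all genes were. Albumin (Alb), the main hepatocyte secretory protein, was at 174 and 48.2 RPKM in wild types 5 and 6, 6.24 and 3.57 in mutants 1 and 2, and 94.3 and 53.5 in Wnt1-Ribotag 1 and 2. Among the whole-muscle libraries Fga was 3.42% to 4.89% of Alb, Fgb 3.90% to 4.78%, Fgg 3.50% to 6.0%, Kng1 2.10% to 2.80%, Plg 1.70% to 2.88% and Proc 0.768% to 1.22%. These genes thus kept a nearly fixed proportion to albumin over libraries in which their own level changed many-fold.

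Alb itself spanned 48.7-fold over the 4 whole-muscle libraries, so a gene that is steady in RPKM spans about as much when given as a percent of Alb, and the percentages restate the RPKM in relation to Alb. Over these libraries the RPKM of the 15 genes made by hepatocytes spanned a median of 44.7-fold from lowest to highest, but their percent of Alb spanned a median of 1.96-fold. For 13 of the 15 the latter span was under 4-fold, and Masp2 reached 56.9-fold. The 10 genes of outside source spanned a median of 1.45-fold in RPKM and 49.0-fold as a percent of Alb. Of the 10 genes of mixed source, F5 and C3 had a span of percent of Alb under 4-fold, and the median was 24.3-fold against 2.68-fold in RPKM. Cfb, Cfi, C1s1 and Masp1 therefore differed between mutant and wild-type muscle by less than albumin did. For 14 liver markers besides Alb the medians were 26.5-fold in RPKM and 2.15-fold relative to Alb. These spans describe 4 libraries and carry no test.

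**Figure D3:**
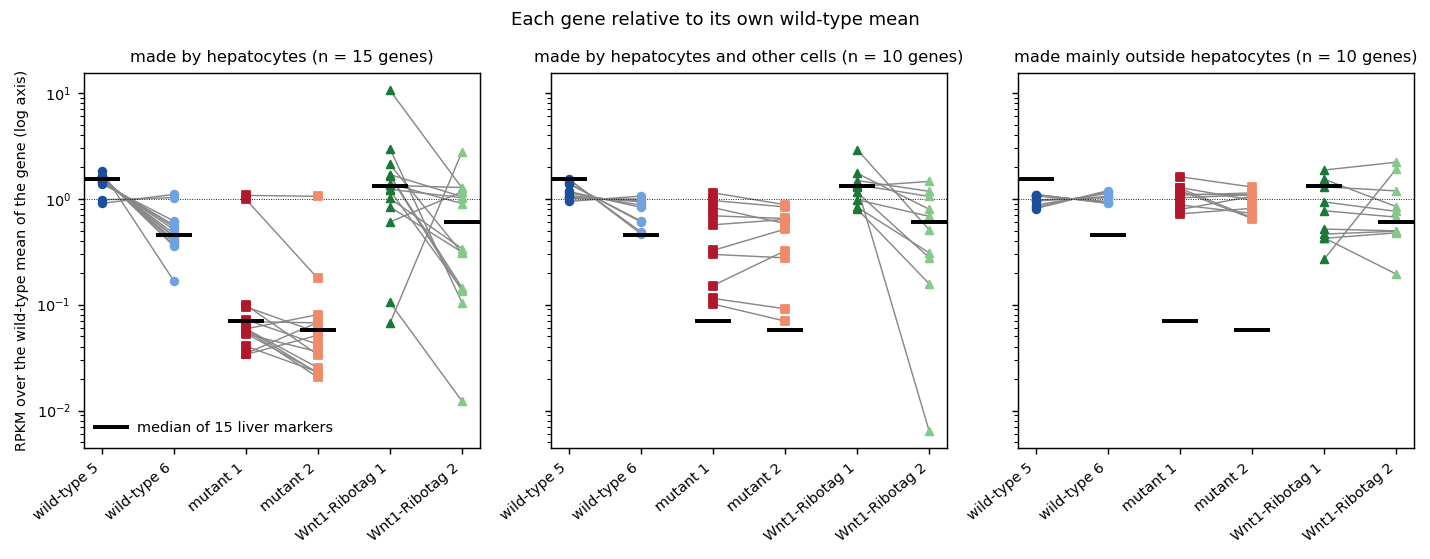
RPKM of each gene divided by its wild-type mean, on a log axis, for the genes never at the floor (15, 10 and 10 by source) in the 6 libraries; the black bars are the median of 15 liver markers in that library. Most genes made by hepatocytes lie low with the black bars in the mutants, except Masp2 and, in mutant 1, Hrg; in Wnt1-Ribotag many lie near their wild-type mean, but F13b stays low in both libraries, Hrg in the first, and F10, F11, F12 and Cpb2 in the second, and most genes of outside source stay near their wild-type mean.

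The second comparison asked how the genes stand in RNA pulled down with the tagged ribosomes, against whole wild-type muscle. Fga was at 9.05 and 5.61 RPKM in Wnt1-Ribotag 1 and 2, Fgb at 2.87 and 5.53, and Fgg at 3.29 and 1.23, values that lie within or near those of the wild types. Proc was at 1.38 and 1.32 RPKM, Kng1 at 2.97 and 0.999, and Plg at 6.22 and 0.906. C3 was at 3.07 and 0.741 RPKM, Cfi at 1.69 and 0.626, and Cfb at 2.91 and 2.26. None of these groups of values was separate from the wild types. Genes made by hepatocytes often stood higher in the first Wnt1-Ribotag library, at least 2-fold in 9 of 15, against 7.03% of all genes. C8a was at 3.09 and 0.370 RPKM, F10 at 2.39 and 0.0839, F12 at 0.824 and 0.0680 and Cpb2 at 0.971 and 0.113. F5 was at 0.309 and 0.00151 RPKM.

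Not every gene made by hepatocytes was present. F7 was at the floor in both Wnt1-Ribotag libraries, where 3 reads would have given 0.0131 and 0.00938 RPKM, against 0.165 and 0.102 in the wild types. F9 and C9 had 0 reads in the first and 1 in the second, and F13b was at 0.0161 and 0.00188 RPKM. These genes were low or absent in libraries where Alb and the fibrinogen chains were near their wild-type level. F7, F9, F13b and C9 were also among the lowest genes of the list in wild-type muscle, and the Wnt1-Ribotag libraries were made from less RNA and had fewer genes above the floor; the part of this in the result was not tested.

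Among genes of outside and mixed source some lay below and some above both wild types, none of them past the test. Plat was at 17.4 and 18.6 RPKM in Wnt1-Ribotag, below both wild types, with the smallest adjusted p of the list (-1.04, SE 0.16, adjusted p = 0.148 by limma). Plaur was at 1.32 and 0.599 RPKM (-1.34, SE 0.34, adjusted p = 0.182). C5ar1 was at 0.403 and 0.387 RPKM, F8 at 0.158 and 0.178 and F13a1 at 7.90 and 6.88, each also below both wild types. Macrophage markers were lower in both Wnt1-Ribotag libraries for 8 of 8 genes (summed RPKM 43.4 and 38.2 against 65.9 and 69.3). So were 6 of 10 fibroblast markers (2339 and 2511 against 3202 and 3199), 4 of 7 mesothelial markers (84.9 and 67.0 against 143 and 129) and 6 of 10 endothelial markers (64.7 and 72.6 against 69.3 and 73.0), beside 30.8% of all genes. Of 10 erythroid markers 6 were lower as well (6296 and 5831 against 14960 and 7785). Of 10 skeletal muscle markers 2 were lower and 3 higher (3448 and 3205 against 3817 and 3135), beside 22.8% of all genes that were higher. How much RNA of untagged cells the Wnt1-Ribotag libraries held was not tested. The part of these cell types in the values of the lower genes was not tested. Higher than in both wild types were Cd59a at 7.49 and 8.87 RPKM (0.94, SE 0.20, adjusted p = 0.17), Pros1 at 10.02 and 11.2 RPKM, Cd55 at 3.63 and 3.32 and C1s1 at 1.89 and 1.49. Vwf (1.5 and 0.827 RPKM), Plau (5.33 and 4.34), C2 (1.57 and 1.09), C1ra (0.849 and 0.167) and Masp1 (1.57 and 0.718) varied as much within the Wnt1-Ribotag group as between groups or were only slightly apart.

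No gene of the list passed in this comparison. Of 26 genes in the fit 0 passed in limma, beside 0.00694% of 14418 genes, and 3 had an unadjusted p under 0.05 (Plat, Plaur and Cd59a), as did 2813 genes in all. The count passing moved when either Wnt1-Ribotag library was left out, which leaves 1 sample in that group. None differed at least 2-fold in all 4 pairs, against 2.34% of all genes, and 1 to 3 did with a library left out. Of the 35 genes above the floor, 8 were lower and 4 higher without overlap, against 30.8% and 22.8% of all genes. Without a filter the median difference was -0.025 for the 18 genes made by hepatocytes and -0.22 for the 11 of outside source, beside -0.003 over all genes. For the 10 tested genes made by hepatocytes it was 0.04, and turned with the library left out: -1.02 without the first Wnt1-Ribotag library, 0.44 without the second, 0.71 without wild type 5 and -0.59 without wild type 6. For the 8 tested of outside source it was -0.32, and -0.10 without wild type 6. Schwann lineage markers had a median difference of 2.69, and all 12 were higher in both Wnt1-Ribotag libraries. The order shown by such markers, at least 2-fold lower in the mutants and at least 2-fold higher in Wnt1-Ribotag than in wild type in all pairs, was found in 4 of the 12, in 8 genes of 14320 (0.0559%), and in 0 of the 25 genes of the list that could be counted.

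The third comparison set Wnt1-Ribotag against the mutants. It shares its libraries with the other two, so its values are given side by side with theirs and not as separate evidence. Fga was higher in Wnt1-Ribotag by 3.45 (SE 0.35, adjusted p = 0.014 by limma), with pairs from 19.5-fold to 74.1-fold higher in RPKM. Fgb was higher by 2.67 (SE 0.39, adjusted p = 0.0374), with pairs from 11.4-fold to 32.4-fold. Fgg, the chain with the lowest Wnt1-Ribotag mean (2.26 RPKM), differed by 1.69 (SE 0.47, adjusted p = 0.148). Fgb lost the call without either mutant library, and the count passing moved with any library left out, which leaves 1 sample in a group. In those fits Fga differed by 3.13 to 3.77 and Fgb by 2.25 to 3.09. Both chains are in the fit only through their Wnt1-Ribotag values, since their mutant means of 0.205 and 0.211 RPKM lie under the filter, and without the filter neither call held and 0 of the 40 genes passed (adjusted p = 0.0801 for Fga and 0.121 for Fgb by limma). Fgb also lost its call after quantile normalization (adjusted p = 0.0614). With the filter the alpha and beta chains were the 2 of 25 genes in the fit that passed, both higher, beside 1.02% of 14325 genes that were higher. Counting these, 13 genes of the list had an unadjusted p under 0.05, as did 2758 genes in all.

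At least 2-fold higher in all 4 pairs were Cfb, Fga, Fgb, Kng1, Plg and Proc, 6 of 25 against 3.34% of all genes, and 0 were lower, against 0.607%. Of these, Cfb is the exception in having a mutant mean above 0.5 RPKM, the others being in the fit only through Wnt1-Ribotag. Counted without the filter they were 6 of 40, against 2.11% of 23073 genes. Without the second Wnt1-Ribotag library 10 genes were higher by this rule, and without the first only 3 were (Cfb, Fga and Fgb) while 1 was lower (Plaur). Proc, with like values in both Wnt1-Ribotag libraries, differed by 1.73 (SE 0.39, adjusted p = 0.106), and Cfb by 1.46 (SE 0.32, adjusted p = 0.101), both by limma. Kng1 and Plg differed by 1.87 (SE 0.50) and 2.33 (SE 0.71). Without overlap 12 of the 18 genes made by hepatocytes were higher in Wnt1-Ribotag, beside 29.3% of all genes above the floor, while F7, F9 and C9 were at the floor in 1 or both of its libraries. Without a filter their median difference was 0.74 over all 18, beside 0.003 over all genes. Of the 10 genes of outside source above the floor 6 were lower without overlap, beside 24.5% of all genes. Their median was -0.35 over all 11 without a filter, with Plat lower by -0.72 (SE 0.22, adjusted p = 0.173) and Cd59a higher by 1.05 (SE 0.26, adjusted p = 0.119), both by limma. Among markers, 5 of 8 for macrophages, 5 of 10 for fibroblasts, 5 of 7 mesothelial, 6 of 10 skeletal muscle and 1 of 10 endothelial were lower without overlap. Higher were 0, 0, 1, 1 and 1 of these. The part of these cell types was not tested. Of 13 liver markers in the fit 8 passed, all higher, beside 1.02% of all genes. Without the filter 0 of 19 passed, beside 0.485% of all genes. Relative to Alb, Fga was 9.60% and 10.5% in the Wnt1-Ribotag libraries, outside its range of 3.42% to 4.89% in whole muscle, and Fgb 3.04% and 10.3%, while Proc was 1.46% and 2.47%.

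Of 59 further genes of the same cascades, 57 had a value. In mutant vs. wild-type muscle 0 of 43 tested passed in limma, against 0.171% of all genes, and 4 were at least 2-fold lower in all pairs, against 0.399%. All 4 have mutant means under the filter and are in the fit only through wild type; without the filter they were 4 of 57, against 0.247% of all genes. These were Serpinc1, antithrombin, at 3.15 and 0.896 RPKM against 0.191 and 0.0800 in the mutants; Serpind1, heparin cofactor II, at 3.04 and 1.02 against 0.171 and 0.134; Vtn, vitronectin, at 5.90 and 1.499 against 0.443 and 0.190; and Serpinf2, the plasmin inhibitor alpha-2-antiplasmin, at 10.7 and 2.96 against 0.365 and 0.181. All 4 are usually secreted by hepatocytes. The paper reports Serpinc1 and Serpind1 as made by Schwann cells, and possibly by muscle, from its qPCR of muscle and its Wnt1-Ribotag RNA. The source of these transcripts was not tested here. Serpinf2 had the largest difference of the 4 (-3.02, SE 0.46, adjusted p = 0.0713 by limma) and was the 1 of 42 further genes tested that passed in Wnt1-Ribotag vs. mutant, at 7.62 and 4.14 RPKM (3.0, SE 0.38, adjusted p = 0.0246), where 1.02% of all genes were higher and passed. Its mutant mean also lies under the filter, and without the filter it did not pass (adjusted p = 0.111 by limma) and 0 of the 57 did. In that comparison Colec10, Proz, Serpinc1, Serpind1, Serpinf2, Susd4 and Vtn were at least 2-fold higher in all pairs. They were 7 of 42, against 3.34% of all genes, and 0 were lower, against 0.607%. Without the filter they were 7 of 57, against 2.11%. The highest of the further genes, all expressed by many cell types, were S100a10 and Anxa2, which together form a plasminogen receptor, with means of 173 and 156 RPKM, then the protease inhibitor Serpine2 (47.8), Lman1 (42.0), a cargo receptor for F5 and F8, and the collectin Colec12 (32.5). None of these 5 passed in any of the 3 comparisons.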

How the data were processed

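RPKM values per Ensembl gene were deposited by the authors for each library, in a separate file with a flag that marks genes at the floor; per the labels, reads were aligned with STAR to mm9. The program that made the RPKM values, the annotation release and the use of strand are not given in the sources used here. The deposited flag (other unit) served only to find floor values. Gene symbols came from GENCODE M21, which named 21583 of 23073 identifiers. The genes and lists were chosen with earlier results of these data known.

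Groups followed the labels, each Wnt1-Ribotag sample being a pool from a litter; the sources do not say whether whole-muscle samples of a group came from separate litters, and p-values measure the spread between these libraries. Two-group differences were tested with limma 3.58.1 in R 4.3.3 (eBayes with trend) on log2(RPKM + 0.5), for genes with a mean of at least 0.5 RPKM over the libraries compared, with Benjamini-Hochberg adjustment over all genes tested and a threshold of 0.05; the procedure was tested on simulated data. A second rule asked for at least 2-fold in all 4 pairs, with 0.5 added. Of the listed genes, 17, 14 and 15 fell below the filter in mutant vs. wild type, Wnt1-Ribotag vs. wild type and Wnt1-Ribotag vs. mutant. For those an exact two-sided permutation test of 2 against 2 cannot go below p = 0.33. Per-library values are given for genes with a mean of at least 1 RPKM, for those called and for low genes of each role. Depth was derived from the floor values of 223 microRNA genes (81.2% led to one depth); limits of 3 reads cover counting error only. Tables and figures were made with Python 3.11.15, pandas 2.3.3, numpy 2.4.6, scipy 1.17.1 and matplotlib 3.10.9. Alternatives were another pseudocount, filter, fold, normalization or fit, and leaving out each library.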

Additional observations from a re-analysis of the deposited data

How the results depend on the processing

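With 2 libraries a group, counts of calls depend on the settings, whereas Kng1, C3, Fga, Fgb, Fgg, Plg, Proc and Cfb, the listed genes called, did not change sign in the comparisons that called them under any alternative run; for single genes outside the list only Serpinf2 was looked at again, without the filter. In mutant vs. wild type the count passing, 0, was 1 with a pseudocount of 0.1 (Plg) and 4 with none, an alternative chosen after seeing the data. It also moved with either wild type left out. The 6 genes at least 2-fold lower became 3 with a pseudocount of 1, 2 at 3-fold, and 6 to 9 with a library left out. The median of tested genes made by hepatocytes, -2.28, was -3.55 with a pseudocount of 0.1, -4.19 with none, -0.72 without the filter, and -3.04 to -1.57 with a library left out. That of outside source, -0.08, was 0.087 after quantile normalization and -0.16 to 0.10 with a library left out.

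In Wnt1-Ribotag vs. wild type the count passing, 0, was 1 (Plat) with all 6 libraries in the fit. It also moved with either Wnt1-Ribotag library left out. The 0 at 2-fold became 1 with a pseudocount of 0.1 or none, 3 at 1.5-fold, and 1 to 3 with a library left out. The medians, 0.04 and -0.32, were -1.02 to 0.71 and -0.44 to -0.10 with a library left out.

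In Wnt1-Ribotag vs. mutant the 2 passing became 0 without the filter, 1 (Fga) after quantile normalization, and 1 to 14 with a library left out. The 6 at 2-fold became 10 with a pseudocount of 0.1, 3 with 1, 11 with none, 11 at 1.5-fold, 3 at 3-fold, and 4 to 10 with a library left out. The median of tested genes made by hepatocytes, 1.76, was 3.19 with a pseudocount of 0.1, 4.27 with none, 0.74 without the filter, and 1.76 to 2.46 with a library left out. That of outside source, -0.38, was -0.55 after quantile normalization and -0.44 to -0.31 with a library left out.

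Wnt1-Ribotag and mutant libraries share the numbers 1 and 2, which the labels do not say pair them. Same-numbered libraries deviated with a correlation of 0.168, and with the replicate number as a block 3 genes of the list passed instead of 2 (Fga, Fgb and Plg). The study set its whole-muscle samples side by side in numbered pairs, but the labels number the wild types 5 and 6 and nothing ties them to mutants 1 and 2, so no block was fitted against wild type and an effect of such pairs on the spread was not tested. Where calls moved, the cause was not tested; a library left out leaves a lone sample that is assumed to vary like the other group.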

Other observations

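Some further genes of the cascades were higher in Wnt1-Ribotag than in either kind of whole muscle. Colec10, a collectin of the lectin pathway, was at 9.94 and 3.59 RPKM in Wnt1-Ribotag against 0.885 and 0.840 in the wild types and 0.753 and 0.588 in the mutants. In every pair of both comparisons it was higher by 2-fold or more, with differences of 2.26 (SE 0.48, adjusted p = 0.17 by limma) and 2.48 (SE 0.46, adjusted p = 0.0697). Susd4, a membrane inhibitor of complement, was at 6.03 and 6.39 RPKM in Wnt1-Ribotag, 2.75 and 3.54 in the wild types and 2.45 and 2.11 in the mutants. Proz, protein Z of the clotting system, was at 6.22 and 1.66 RPKM against 1.35 and 0.850 in the wild types and 0.573 and 0.449 in the mutants. In Wnt1-Ribotag 1, where C8a, F10 and Colec10 were high, Hnf4a, a transcription factor of hepatocytes, was at 6.51 RPKM, against 1.12 in Wnt1-Ribotag 2 and 0.584 and 0.248 in the wild types. The liver markers as a list did not rise with it: of 15 tested, 8 were lower and 7 higher in Wnt1-Ribotag than in wild type. A link between Hnf4a and these genes was not tested.

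Lower in Wnt1-Ribotag than in wild-type muscle by at least 2-fold in all pairs were C1qc, a chain of the C1q recognition protein made by macrophages, at 11.7 and 12.6 RPKM against 30.1 and 25.7, Fcna, a ficolin of macrophages, at 0.509 and 0.264 against 1.98 and 1.52, and Clu, clusterin, an inhibitor of the terminal pathway, at 3.46 and 3.69 against 10.2 and 9.57. None of these differences passed in limma. In the mutants C1qc was at 24.7 and 29.5 RPKM, overlapping the wild types.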
